A study of Mus musculus with 12 samples.

Results

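The guanylate-binding proteins (GBPs) and the immunity-related GTPases (IRGs) are GTP-hydrolysing proteins whose genes are switched on by interferons. The 10 genes described here were chosen by name as mouse members of both families, not by their values: Gbp2, Gbp3, Gbp5, Gbp7 and Gbp9 of the GBP family, and Irgm1, Irgm2, Igtp, Iigp1 and Ifi47 of the IRG family. All 10 were among the 21885 genes of an RNA-seq table covering 12 libraries, each from sorted mouse cells, and all 10 passed the filter on low values. Another 15 genes of the same families were in the table and are described after them.

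The P80R B-ALL group consisted of 4 libraries of GFP-positive cells with the genotype PAX5 P80R, sorted from B-cell acute lymphoblastic leukaemia in 4 primary recipients, numbered 1300, 1301, 1302 and 1308. The Pax5 KO group consisted of 4 libraries of common lymphoid progenitor and pre-pro-B cells sorted from fetal liver that lacks Pax5. In the Pax5 WT group, fetal liver with wild-type Pax5 gave 4 libraries at a later step, the pro-B and pre-BI stage. The promoter that drove the mutant, the donor cells, the condition and age of the recipients and the age of the fetuses are unstated in the sources used here, as is whether the fetal liver libraries of a group came from separate animals. P values therefore measure the spread between these libraries. Tumour against fetal liver and a later against an earlier B-lineage stage differ along with the Pax5 genotype, and these cannot be told apart from it.

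Interferon-gamma signals through its receptor to the kinases JAK1 and JAK2, acts on promoters that hold gamma-activated sites and induces the factor IRF1. Type I interferons act through another receptor and through a complex that holds STAT2 and IRF9 and binds the interferon-stimulated response element. GBPs are large GTPases that assemble on the membranes of vacuoles that hold microbes and promote inflammasome activation. IRGs fall into regulators, which sit on the cell's own membranes and keep the family inactive there, and effectors, which load onto the vacuoles of pathogens such as Toxoplasma. In mice the GBP genes lie in clusters on chromosomes 3 and 5 and most IRG genes in clusters on chromosomes 11 and 18.

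The 300 bases around an annotated start site, 250 before it and 50 after, were available for 8 of the 10 genes in RefSeq sequence of build GRCm38.p6, and not for Gbp9 and Iigp1. Those of 5 genes are shown because they carry the arrangements that recur. Both strands were searched for the core of the interferon-stimulated response element, taken as GAAA, any 2 bases and GAAA again, and for the gamma-activated site, TTCNNNGAA. The first was present in a promoter of 7 of the 8 genes, against 3.44% of 32851 mouse promoters of the same length, and the second in 4 of the 8, against 8.30% of those promoters. The motifs can overlap copies of themselves on the same stretch. In the lines that follow, matches to either motif are in capitals, and each sequence runs 5′ to 3′ along its gene. The windows are chr3:142620413-142620712 (+ strand) for Gbp2, chr3:142530086-142530385 (+) for Gbp7, chr11:48871371-48871670 (-) for Irgm1, chr11:58214727-58215026 (+) for Irgm2 and chr11:58199306-58199605 (+) for Igtp.
Gbp2: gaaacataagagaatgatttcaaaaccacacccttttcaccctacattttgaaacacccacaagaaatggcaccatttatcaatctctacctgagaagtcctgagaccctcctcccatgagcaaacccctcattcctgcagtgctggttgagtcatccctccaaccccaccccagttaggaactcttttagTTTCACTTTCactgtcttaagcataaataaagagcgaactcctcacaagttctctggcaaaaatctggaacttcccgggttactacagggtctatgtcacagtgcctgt
Gbp7: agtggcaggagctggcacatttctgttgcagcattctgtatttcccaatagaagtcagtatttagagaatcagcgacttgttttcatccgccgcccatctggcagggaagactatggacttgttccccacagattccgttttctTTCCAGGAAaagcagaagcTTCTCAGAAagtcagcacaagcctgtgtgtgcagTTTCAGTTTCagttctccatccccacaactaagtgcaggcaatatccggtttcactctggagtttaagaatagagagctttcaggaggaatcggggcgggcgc
Irgm1: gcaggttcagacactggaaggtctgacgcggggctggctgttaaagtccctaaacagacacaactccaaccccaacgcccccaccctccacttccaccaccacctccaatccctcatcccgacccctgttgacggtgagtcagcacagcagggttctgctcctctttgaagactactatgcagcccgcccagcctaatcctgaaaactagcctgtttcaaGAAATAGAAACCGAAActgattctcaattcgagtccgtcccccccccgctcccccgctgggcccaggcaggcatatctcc
Irgm2: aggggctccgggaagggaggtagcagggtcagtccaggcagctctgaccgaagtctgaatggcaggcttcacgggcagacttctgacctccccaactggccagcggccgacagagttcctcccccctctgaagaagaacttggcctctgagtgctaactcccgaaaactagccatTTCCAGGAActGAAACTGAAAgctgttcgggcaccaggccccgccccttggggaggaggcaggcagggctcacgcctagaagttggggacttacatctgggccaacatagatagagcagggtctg
Igtp: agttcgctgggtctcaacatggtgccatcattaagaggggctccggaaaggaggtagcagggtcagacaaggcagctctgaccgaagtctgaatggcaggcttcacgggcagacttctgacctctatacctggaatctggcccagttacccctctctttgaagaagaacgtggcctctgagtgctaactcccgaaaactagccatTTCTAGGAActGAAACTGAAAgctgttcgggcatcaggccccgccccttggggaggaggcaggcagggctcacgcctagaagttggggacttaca

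Gbp2 held 1 response-element core, which started 59 bases before the start site on the opposite strand. Gbp7 held 1 at 53 bases before the start, behind a pair of gamma-activated sites at 106 and 87 bases before it. Irgm1 held 2 overlapping cores, at 30 and 24 bases before the start, and Gbp3 likewise held 2 that overlapped, at 45 and 39 bases before 1 of its 2 annotated starts. In Gbp5 the core lay farther away, 165 bases before the start, with gamma-activated sites at 245 and 52 bases before it.

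Irgm2 and Igtp shared a compact arrangement in which a gamma-activated site is followed, after 2 bases, by a response-element core. The promoters of Irgm2 and Igtp also share a run of 61 identical bases, which lies after this arrangement and does not include it. The arrangement began 75 bases before the start of Irgm2 and 45 before that of Igtp. It recurred at 88 and 81 bases before the starts of the effector genes Tgtp1 and Tgtp2. Searched as a single motif of 21 letters, a choice made after these sequences had been seen, it was present in 5 of 32851 promoters (0.0152%). These were the promoters of Igtp, Irgm2, Tgtp1, Tgtp2 and Gm12185. The last is a gene on chromosome 11 that was not analysed here and that shares 223 exon bases with Tgtp1 in the annotation. The Ifi47 window held neither motif. A match is a description of the sequence, and factor binding was not measured.

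**Figure D1:**
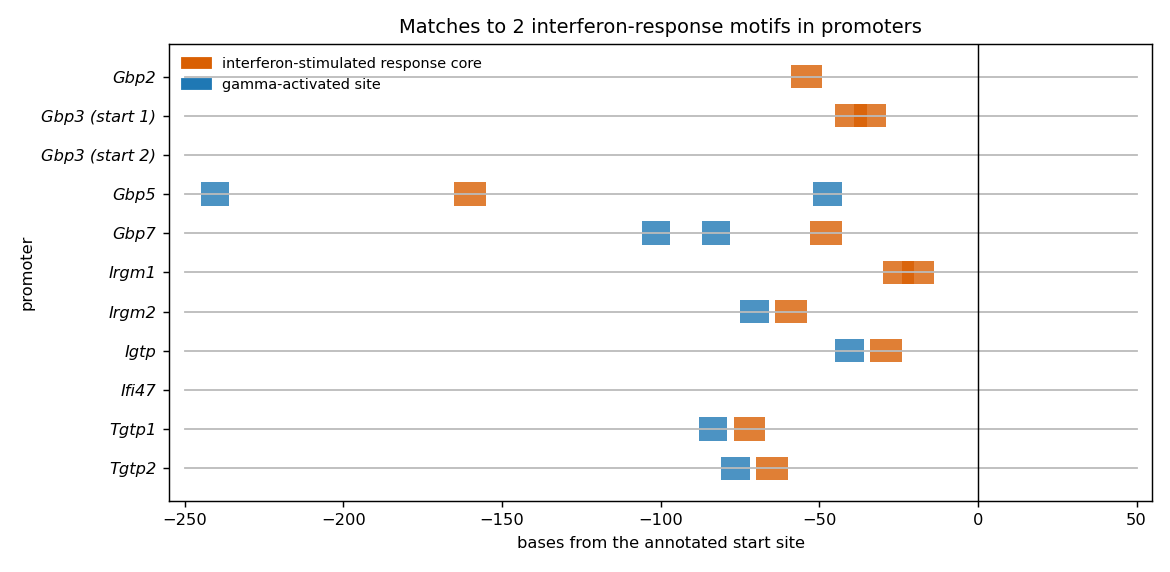
Matches to the response-element core (orange) and the gamma-activated site (blue) in 300-base promoters of 8 of the 10 genes and of Tgtp1 and Tgtp2; the x axis gives bases from the annotated start site and each line is 1 promoter. Irgm2, Igtp, Tgtp1 and Tgtp2 show the same pair of adjoining matches at 4 distances, and Ifi47 and the second start of Gbp3 show none.

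Values are the deposited scaled read counts (reads multiplied by a factor per library), with mean ± SD over n = 4 libraries. P80R B-ALL values are listed in the order of recipients 1300, 1301, 1302 and 1308, and fetal liver values in the order of replicates 1 to 4. Depth was 24914250 to 29386256 reads per library in P80R B-ALL, 36871775 to 43513852 in Pax5 KO and 33191950 to 39465256 in Pax5 WT. Differences are of log2(value + 1), given with the standard error (SE) and the Benjamini-Hochberg adjusted p of limma over 12200 tested genes, with a threshold of 0.05. As a check of the labels, Pax5 had 847, 1146, 1316 and 255 scaled reads in P80R B-ALL, 229.9, 247, 267 and 266 in Pax5 KO, and 7315, 6359, 7067 and 6194 in Pax5 WT. Reads of a gene with a deleted exon can still be counted, and which part was deleted is unstated in the sources used here.

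Markers of other cells moved with the groups. Of 6 erythroid markers, 5 were higher in P80R B-ALL than in either fetal liver group, and their summed value was 373619, 36051, 29468 and 924081 in P80R B-ALL, 154 to 209.6 in Pax5 KO and 92.6 to 181 in Pax5 WT. The 8 macrophage markers summed to 5026, 6984, 5836 and 35595 in P80R B-ALL, 1032 to 1222 in Pax5 KO, where C1qc and Cd5l were at 0, and 32.0 to 65.2 in Pax5 WT, where 5 of the 8 were at 0. The 9 granulocyte and monocyte markers summed to 134965, 13703, 5597 and 240988 in P80R B-ALL, 10448 to 11201 in Pax5 KO and 575 to 828 in Pax5 WT. The 5 T-cell markers in the table summed to 355, 348, 600.4 and 4397 in P80R B-ALL, 43.6 to 75.1 in Pax5 KO and 0 to 2.58 in Pax5 WT. The 6 plasmacytoid dendritic cell markers summed to 224276 in recipient 1308 and to 13764 to 20094 in the other recipients, against 17634 to 18965 in Pax5 KO and 16058 to 17697 in Pax5 WT. These near-equal fetal liver sums hide 4 markers higher and 2 lower in Pax5 KO, beside 35.7% and 29.1% of all tested genes. Siglech had 1224, 1187, 1203 and 1166 in Pax5 KO and 0 in Pax5 WT. Ccr9 had 3150, 3462, 3654 and 3525 in Pax5 KO, against 5.67, 0, 7.91 and 3.44 in Pax5 WT. The 10 NK and innate lymphoid markers summed to 6617, 1755, 9607 and 21296 in P80R B-ALL, 6769 to 7593 in Pax5 KO and 390.2 to 576 in Pax5 WT, where 5 of the 10 were at 0. The 4 lymphoid progenitor markers summed to 2911, 45072, 32444 and 114557 in P80R B-ALL, 31902 to 36029 in Pax5 KO and 8037 to 9362 in Pax5 WT. Ly6d alone gave 38379 of the sum in recipient 1301 and 105192 of that in 1308. Cd34 had 25.0, 19.7, 0 and 5.54 in P80R B-ALL, against 2442, 2856, 2644 and 2884 in Pax5 KO. Flt3 was in each recipient below every Pax5 KO library and above every Pax5 WT library. The 6 endothelial and stromal markers summed to 3720, 3170.0, 3584 and 8598 in P80R B-ALL, 1988 to 2121 in Pax5 KO and 2214 to 2669 in Pax5 WT, and Dcn was at 0 in both fetal liver groups. The 10 early B-lineage markers were all detected in every group and summed to 101531 to 199137 in P80R B-ALL, 47614 to 49022 in Pax5 KO and 222929 to 261205 in Pax5 WT. Of 4 hepatocyte markers, Alb, Apoa1 and Ttr were at 0 in all 12 libraries. These values stand beside every result below, and their part in it was not tested. In such bulk samples fewer cells of a type and less RNA per cell cannot be told apart.

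Between Pax5 KO and Pax5 WT the 5 GBP members and the 5 IRG members had opposite signs: the GBP members were lower and the IRG members higher in Pax5 KO. Other GBP genes did not all follow, since Gbp8 and Gbp6 were higher there. In P80R B-ALL all 5 IRG members were higher than in either fetal liver group, although 1 of them, Iigp1, passed the filter on low values only through the P80R B-ALL libraries and had to be high in them. Of the GBP members only Gbp2 and Gbp9 passed the test, both higher. With Iigp1 among them, 7 members were higher and 0 lower against Pax5 KO, beside 17.6% of all tested genes called higher and 20.8% called lower. Against Pax5 WT it also gave 7 higher and 0 lower, beside 21.0% and 18.9% of tested genes, and for Pax5 KO against Pax5 WT 5 higher and 5 lower, beside 35.7% and 29.1%. The median log2 difference over the 10 genes was 1.92 against Pax5 KO, 1.76 against Pax5 WT and -0.18 for Pax5 KO against Pax5 WT, where the median over all tested genes was -0.11, -0.00 and 0.06. Both comparisons of P80R B-ALL use the same 4 tumour libraries, and each fetal liver group serves in 2 comparisons, so the 3 sets of calls are not independent. For the 0 genes called lower in P80R B-ALL, edgeR and DESeq2 also gave 0, and no member was lower at an unadjusted p under 0.05.

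**Figure D2:**
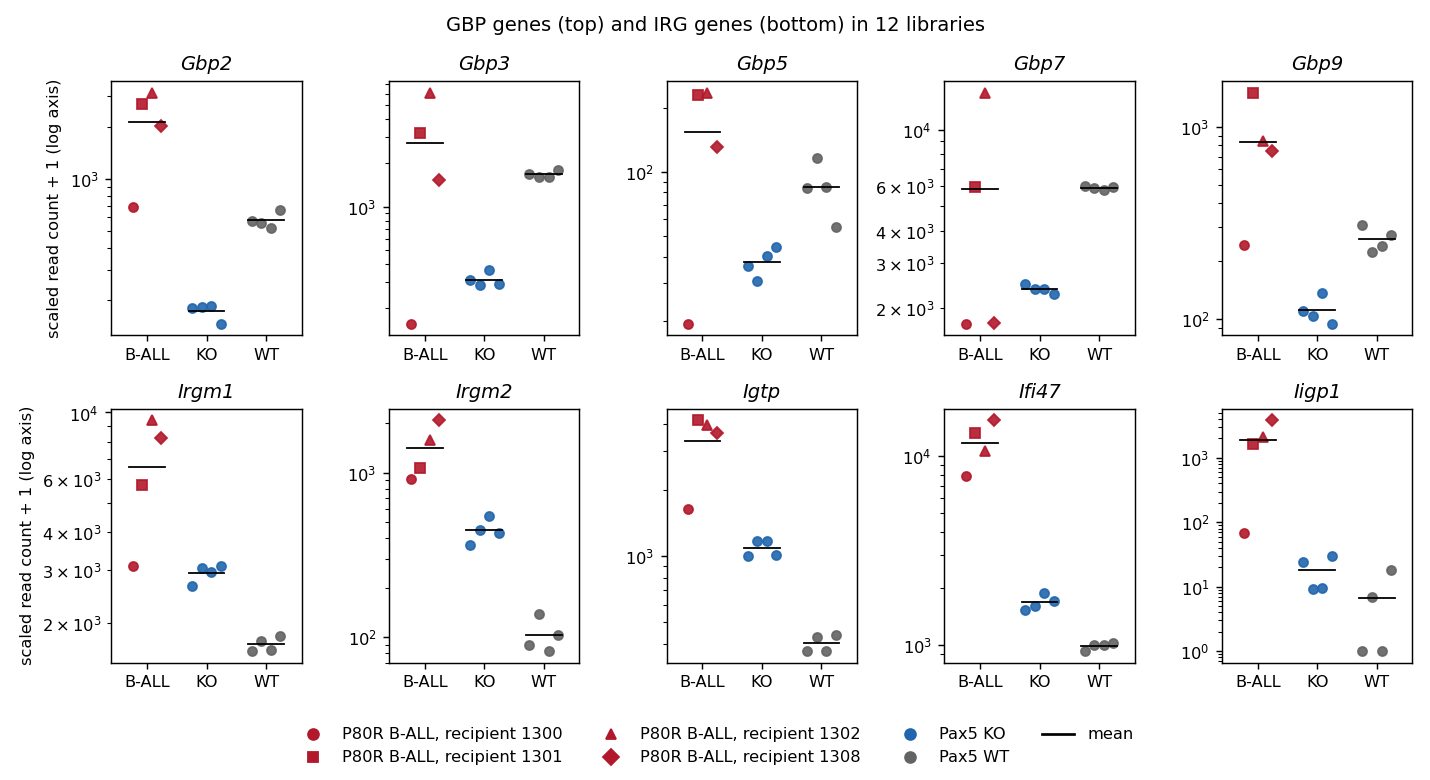
Scaled read count plus 1 (log y axis) of each GBP gene (top row) and IRG gene (bottom row) in P80R B-ALL, Pax5 KO and Pax5 WT; points are libraries, with a symbol per B-ALL recipient, and lines are group means. These 5 GBP genes are lower in Pax5 KO than in Pax5 WT and these IRG genes higher, and recipient 1300 is the lowest P80R B-ALL library in all 10 panels.

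Gbp2, a GBP that coats pathogen vacuoles in mouse cells, had 684, 2686, 3141 and 2025 scaled reads in P80R B-ALL, against 180.4, 181, 183 and 146 in Pax5 KO and 575, 559, 519 and 662 in Pax5 WT. The 3 groups did not overlap, with P80R B-ALL highest and Pax5 KO lowest, although recipient 1300 lay close to the Pax5 WT libraries. The log2 difference of P80R B-ALL was 3.42 from Pax5 KO (SE 0.43, limma adjusted p = 0.000737) and 1.68 from Pax5 WT (SE 0.42, adjusted p = 0.0112). That of Pax5 KO from Pax5 WT was -1.74 (SE 0.12, adjusted p = 1.18e-07). Gbp2 was the 1 GBP gene of the 5 whose P80R B-ALL libraries all lay above all 8 fetal liver libraries.

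Gbp3, also on chromosome 3, had 155, 3204, 6101 and 1522 scaled reads in P80R B-ALL, against 309, 285, 363 and 291 in Pax5 KO and 1672, 1606, 1599.6 and 1788 in Pax5 WT. The P80R B-ALL libraries spread over 39.3-fold and lay on both sides of each fetal liver group, with recipient 1300 below every other library of the series. Neither P80R B-ALL difference passed the test, at 2.24 from Pax5 KO (SE 0.96, limma adjusted p = 0.0965) and -0.18 from Pax5 WT (SE 0.96, adjusted p = 0.897). Without recipient 1300 the difference from Pax5 KO was 3.31 (adjusted p = 0.00129). Between the fetal liver groups Gbp3 had the largest change of the 10 genes among decreases, -2.42 in Pax5 KO against Pax5 WT (SE 0.09, adjusted p = 5.95e-10).

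Gbp7, the most abundant of the 5 GBP transcripts per length in both fetal liver groups, had 1734, 5945, 13972 and 1746 scaled reads in P80R B-ALL, against 2468, 2377, 2374 and 2274 in Pax5 KO and 5995, 5879, 5819 and 5973 in Pax5 WT. Recipients 1300 and 1308 lay below every fetal liver library, recipient 1301 lay among the Pax5 WT libraries and recipient 1302 lay above all of them. The P80R B-ALL mean was 5849.5 ± 5767, and 3142 without recipient 1302. The differences were 0.75 from Pax5 KO (SE 0.61, limma adjusted p = 0.362) and -0.57 from Pax5 WT (SE 0.61, adjusted p = 0.486), and without recipient 1302 that from Pax5 WT was -1.17 (adjusted p = 0.0432). In contrast, the fetal liver values were tight, with a coefficient of variation of 3.34% in Pax5 KO and 1.39% in Pax5 WT, and the difference between them was -1.32 (SE 0.05, adjusted p = 6.68e-10). Of the 50-base words of Gbp7 transcripts, 12.7% also occur in other genes, mostly in the overlapping gene model Gm43802, which was not counted.

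Gbp5, which promotes assembly of the NLRP3 inflammasome, was the least abundant of the 5, with 18.4, 229, 234 and 130.1 scaled reads in P80R B-ALL, against 35.0, 29.6, 39.4 and 43.3 in Pax5 KO and 83.2, 115, 84.0 and 54.2 in Pax5 WT. Recipient 1300 was again below all fetal liver libraries and the other 3 recipients above them. The P80R B-ALL differences of 1.53 from Pax5 KO (SE 0.77, limma adjusted p = 0.142) and 0.40 from Pax5 WT (SE 0.75, adjusted p = 0.704) did not pass, but they were 2.36 (adjusted p = 0.00294) and 1.22 (adjusted p = 0.0343) without recipient 1300. Gbp5 was lower in Pax5 KO than in Pax5 WT by a log2 difference of -1.13 (SE 0.26, adjusted p = 0.00256).

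Gbp9, the 1 member on chromosome 5, had 243, 1505, 842 and 751 scaled reads in P80R B-ALL, against 109.6, 103, 136 and 93.9 in Pax5 KO and 307, 223, 240.2 and 273 in Pax5 WT. All P80R B-ALL libraries lay above Pax5 KO, and 3 of the 4 above Pax5 WT, with recipient 1300 inside the Pax5 WT range. Gbp9 was higher in P80R B-ALL by 2.65 than in Pax5 KO (SE 0.49, limma adjusted p = 0.00385) and by 1.42 than in Pax5 WT (SE 0.47, adjusted p = 0.0366). The second of these calls was lost when any 1 of 7 of the 8 libraries was left out, at adjusted p between 0.0653 and 0.0904, and it held only without recipient 1300. In Pax5 KO against Pax5 WT the difference was -1.23 (SE 0.16, adjusted p = 3.50e-05).

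**Figure D3:**
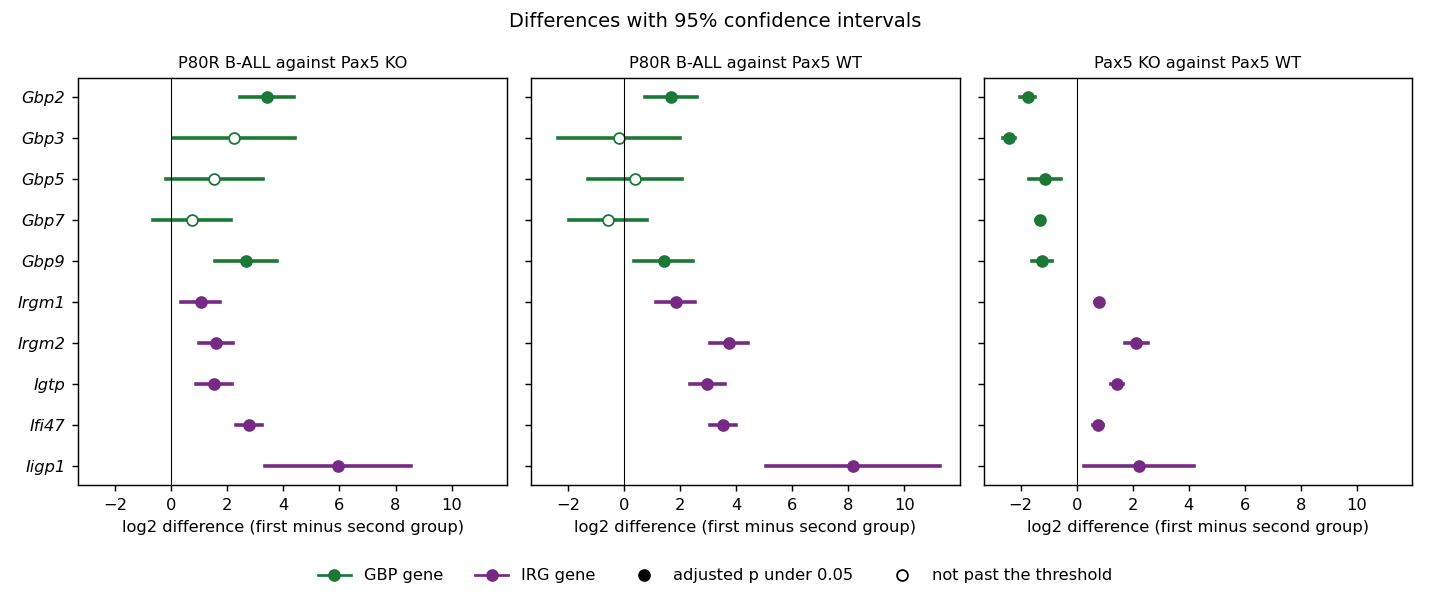
Log2 differences (x axis, first group minus second) of the 10 genes (rows) in the 3 comparisons, with 95% confidence intervals from limma; filled points passed an adjusted p of 0.05. In Pax5 KO against Pax5 WT the GBP genes (green) lie between -2.42 and -1.13 and the IRG genes (purple) between 0.77 and 2.24, while Gbp3, Gbp5 and Gbp7 did not pass in the P80R B-ALL comparisons, with intervals that include 0 except that of Gbp3 against Pax5 KO (0.052 to 4.42).

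Among the regulatory IRGs, Irgm1, whose loss in mice impairs resistance to intracellular pathogens, had 3095, 5743, 9427 and 8202 scaled reads in P80R B-ALL, against 2656, 3053, 2954 and 3099 in Pax5 KO and 1614, 1739.8, 1631 and 1809.7 in Pax5 WT. Recipient 1300 lay within the Pax5 KO range, and every P80R B-ALL and Pax5 KO library lay above every Pax5 WT library. The P80R B-ALL difference was 1.84 from Pax5 WT (SE 0.30, limma adjusted p = 0.00144) and 1.05 from Pax5 KO (SE 0.31, adjusted p = 0.0259). The call against Pax5 KO was lost when any 1 of the 4 Pax5 KO libraries or of recipients 1301, 1302 and 1308 was left out, at adjusted p between 0.0504 and 0.0693. In Pax5 KO, Irgm1 was higher than in Pax5 WT by 0.79 (SE 0.07, adjusted p = 9.78e-07).

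Irgm2, a second regulator, had 919, 1062, 1590.4 and 2091 scaled reads in P80R B-ALL, against 361, 449, 545 and 431 in Pax5 KO and 88.8, 137, 81.1 and 101 in Pax5 WT. The groups were fully apart in the order P80R B-ALL, Pax5 KO, Pax5 WT. The mean in P80R B-ALL was 3.17-fold that in Pax5 KO and 13.9-fold that in Pax5 WT, at log2 differences of 1.60 (SE 0.27, limma adjusted p = 0.00264) and 3.73 (SE 0.30, adjusted p = 3.91e-05). Pax5 KO exceeded Pax5 WT by 2.13 (SE 0.18, adjusted p = 7.73e-07).

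Igtp, the third regulator and the chromosome 11 neighbour of Irgm2, had 1641, 4164, 3964 and 3638 scaled reads in P80R B-ALL, against 1006, 1169, 1168 and 1011 in Pax5 KO and 369, 429, 369 and 435 in Pax5 WT. The groups were apart in the same order as for Irgm2. The log2 differences of P80R B-ALL were 1.54 from Pax5 KO (SE 0.28, limma adjusted p = 0.00376) and 2.98 from Pax5 WT (SE 0.28, adjusted p = 8.91e-05), and Pax5 KO was higher than Pax5 WT by 1.44 (SE 0.10, adjusted p = 8.31e-08). Igtp and Irgm2 share 162 exon bases in the annotation and 11.8% of the 50-base words of Igtp occur in Irgm2, so part of their reads could not be told apart by sequence.

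Ifi47, an IRG induced by interferon-gamma in mouse cells, had 7891, 13241, 10684 and 15541 scaled reads in P80R B-ALL, against 1544, 1623, 1887 and 1708 in Pax5 KO and 931, 1002, 1007 and 1028 in Pax5 WT. The groups did not overlap, and the lowest P80R B-ALL library, at 7891, stood well above the highest fetal liver library, at 1887. Ifi47 had the smallest adjusted p of the 10 genes in both P80R B-ALL comparisons, with a log2 difference of 2.77 from Pax5 KO (SE 0.20, limma adjusted p = 8.33e-05) and of 3.53 from Pax5 WT (SE 0.20, adjusted p = 9.21e-06). It was also the member with the smallest spread among the tumours, 1.97-fold between recipients. Pax5 KO exceeded Pax5 WT by 0.77 (SE 0.08, adjusted p = 3.38e-06).

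Iigp1, an effector that loads onto the Toxoplasma vacuole, had 68.4, 1618, 2079 and 3842 scaled reads in P80R B-ALL, against 22.8, 8.22, 8.57 and 28.9 in Pax5 KO and 0, 6.00, 0 and 17.2 in Pax5 WT. In whole reads these were 52, 1315, 1676 and 2776 in P80R B-ALL, 30, 10, 10 and 40 in Pax5 KO, and 0, 6, 0 and 20 in Pax5 WT. Its log2 difference was 5.94 from Pax5 KO (SE 1.15, limma adjusted p = 0.00482) and 8.18 from Pax5 WT (SE 1.38, adjusted p = 0.00171), the largest of the 10 genes in both comparisons. Without recipient 1300 these differences were 7.21 and 9.45. The difference of 2.24 between Pax5 KO and Pax5 WT (SE 0.90, adjusted p = 0.0453) came from groups that overlap, and it did not pass with edgeR (adjusted p = 0.146) or without a filter (adjusted p = 0.148). It was also lost without any 1 of the Pax5 KO libraries and without Pax5 WT replicate 1 or 3, at limma adjusted p between 0.0533 and 0.128.

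Every P80R B-ALL library lay above every fetal liver library for 5 of the 10 genes (Gbp2, Irgm2, Igtp, Iigp1 and Ifi47), a pattern held by 11.4% of all tested genes. By transcript length, the highest mean level in P80R B-ALL was that of Ifi47 at 4787 scaled reads per kb of exon, followed by Igtp at 1658, Irgm1 at 1139, Gbp7 at 1042, Gbp2 at 848, Gbp3 at 841, Irgm2 at 384, Iigp1 at 327, Gbp9 at 162 and Gbp5 at 23.0. The neighbours from Igtp to Gbp3 in this order had coefficients of variation of 34.6% to 98.6% and were not separated by them. In Pax5 KO the order was led by Ifi47 at 684 per kb, Igtp at 538, Irgm1 at 506 and Gbp7 at 423, and in Pax5 WT by Gbp7 at 1054, Gbp3 at 510.4 and Ifi47 at 401. Igtp and Irgm1 in Pax5 KO differed by less than their SDs. Thus a GBP gene had the highest level per length in Pax5 WT and an IRG gene in the other groups.

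The 5 IRG genes together reached 4796, 8968, 8691 and 10722 scaled reads per kb in P80R B-ALL, against 1681 to 1998 in Pax5 KO and 861 to 973 in Pax5 WT. The 5 GBP genes together reached 678, 3434, 5804 and 1747 per kb in P80R B-ALL, against 577 to 639 in Pax5 KO and 1792 to 1936 in Pax5 WT. The ratio of the IRG sum to the GBP sum was 7.07, 2.61, 1.50 and 6.14 in P80R B-ALL, against 2.66, 3.10, 3.13 and 3.20 in Pax5 KO and 0.458, 0.524, 0.498 and 0.503 in Pax5 WT. Every P80R B-ALL and Pax5 KO ratio was above every Pax5 WT ratio, and the P80R B-ALL ratios lay on both sides of those of Pax5 KO. No test was made of these sums.

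**Figure D4:**
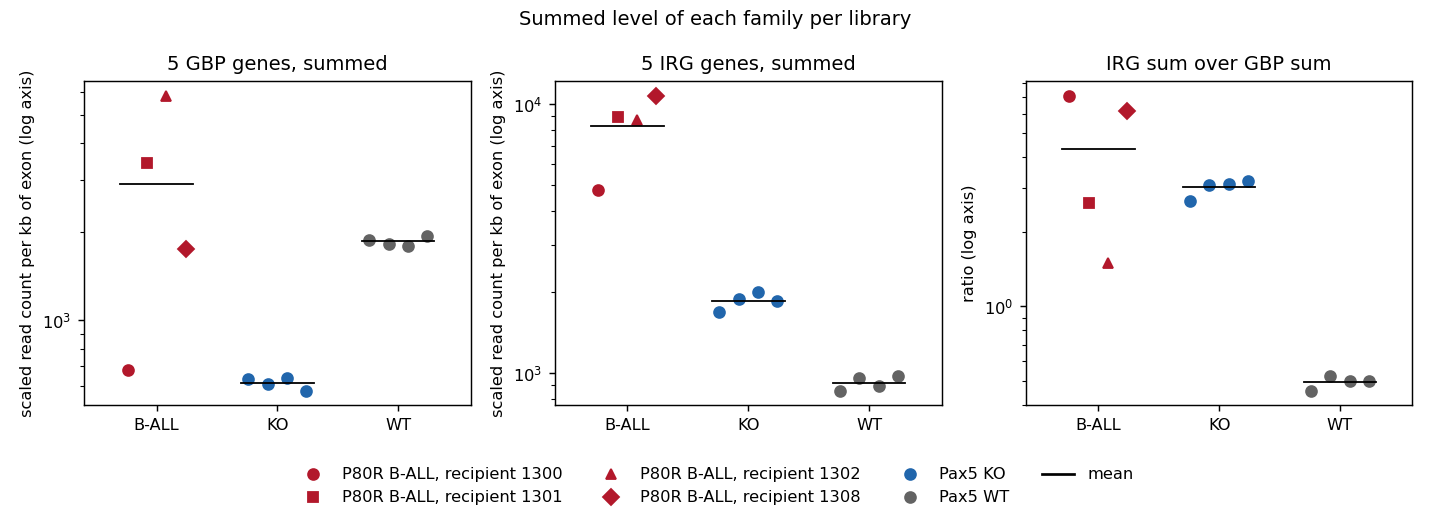
Summed level of the 5 GBP genes (left) and the 5 IRG genes (middle) in scaled reads per kb of exon, and the ratio of IRG sum to GBP sum (right), all on log y axes; points are libraries in P80R B-ALL, Pax5 KO and Pax5 WT, with a symbol per recipient, and lines are means. IRG sums are highest in P80R B-ALL and the ratio is lowest in Pax5 WT, at 0.458 to 0.524.

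The 4 leukaemias were unlike each other in these genes. Recipient 1300 was the lowest P80R B-ALL library for 10 of 10 genes, which was so for 26.5% of all tested genes, while recipient 1302 was the highest for 5 genes, 1308 for 3 and 1301 for 2, which was so for 23.9%, 31.5% and 23.2% of tested genes. The median SD of the log2 values over the 10 genes was 1.04 in P80R B-ALL, 0.16 in Pax5 KO and 0.14 in Pax5 WT, where over all tested genes it was 0.47, 0.11 and 0.16. Set against the Pax5 WT mean, recipient 1300 was lower by log2 differences of -3.42 for Gbp3, -2.08 for Gbp5 and -1.77 for Gbp7, yet higher by 3.19 for Irgm2, 2.99 for Ifi47 and 2.04 for Igtp. Recipient 1308 differed from the Pax5 WT mean by -1.76 for Gbp7 and -0.13 for Gbp3, but by 4.37 for Irgm2 and 10.16 for Iigp1.

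Recipient 1308 had the highest value of Irgm2, Ifi47 and Iigp1. Of the 4 recipients it also had the highest erythroid, granulocyte and monocyte, macrophage, T-cell, NK and innate lymphoid, plasmacytoid dendritic cell, endothelial and stromal, and lymphoid progenitor marker sums, the last of them mostly Ly6d. Its early B-lineage sum, 101531, was the lowest of the 4. The highest was that of recipient 1300, 199137, of which Dntt alone gave 115932. Recipient 1300 had the second highest erythroid and granulocyte and monocyte sums. The part of these cells in the values was not tested. Without recipients 1300 and 1308, which leaves 2 P80R B-ALL libraries, all 10 genes were called higher against Pax5 KO and 9 of 10 against Pax5 WT. Since recipient 1300 was the lowest for every member, leaving it out raises each difference by construction, here and in the values without it given above. Gbp3 then differed by 3.83 from Pax5 KO (limma adjusted p = 9.70e-05) and by 1.41 from Pax5 WT (adjusted p = 0.00397), where with all 4 recipients that value was -0.18. Gbp7 then differed by 1.94 from Pax5 KO (adjusted p = 0.00273), and by 0.62 from Pax5 WT (adjusted p = 0.134), the 1 difference that did not pass.

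**Figure D5:**
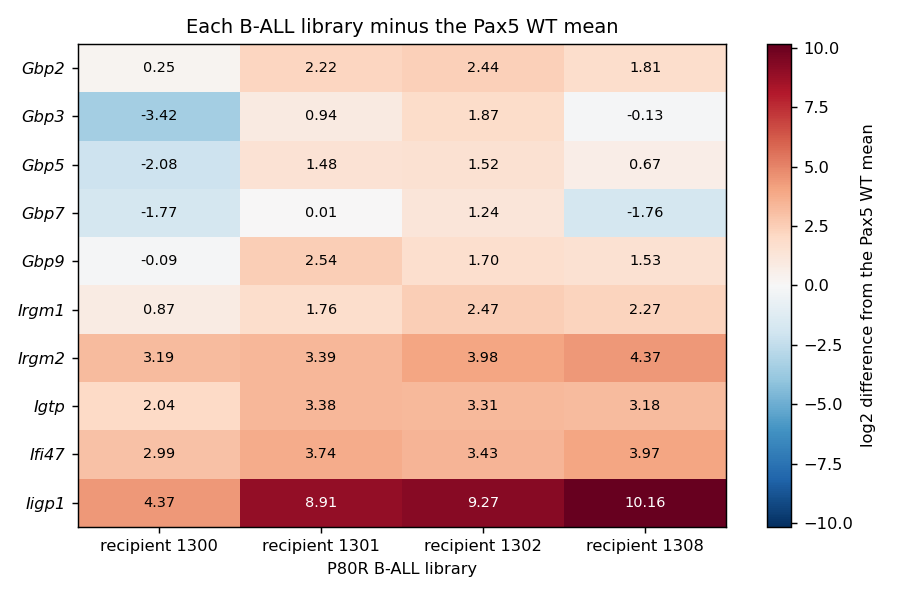
Log2 difference of each P80R B-ALL library (columns, by recipient) from the mean of the 4 Pax5 WT libraries for the 10 genes (rows); red is higher than Pax5 WT and blue lower, and each cell prints its value. The IRG rows are positive in all 4 recipients, whereas Gbp3 spans -3.42 to 1.87 and Gbp7 -1.77 to 1.24.

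The other family genes did not all follow the members. Of these 15 genes, 11 passed the filter and were tested: 6 were higher and 1 lower in P80R B-ALL than in Pax5 KO, also 6 higher and 1 lower against Pax5 WT, and 5 higher and 0 lower in Pax5 KO against Pax5 WT, with median log2 differences of 2.41, 3.58 and 1.32. On chromosome 5, next to Gbp9, Gbp8 had 57.9, 1909, 165 and 704 scaled reads in P80R B-ALL, against 177, 144, 208 and 132 in Pax5 KO and 2.84, 0, 0 and 3.44 in Pax5 WT. Gbp8 was thus higher in Pax5 KO than Pax5 WT, with a log2 difference of 6.33 (SE 0.52, limma adjusted p = 5.45e-07), opposite in sign to the 5 GBP members. Gbp6 had 35.5, 512, 351 and 242 scaled reads in P80R B-ALL, against 34.3, 16.4, 10.3 and 22.4 in Pax5 KO and 0, 2.00, 0 and 0 in Pax5 WT, and was higher in Pax5 KO than Pax5 WT (adjusted p = 6.71e-05). Gbp4 had 106, 60.0, 79.7 and 81.6 in Pax5 KO and 125, 102, 86.0 and 148 in Pax5 WT, and this difference did not pass (adjusted p = 0.0812). Gbp6 shares 70.7% of its 50-base words with other genes, and Gbp8 shares 18.1%, so their levels, that of Gbp6 above all, are uncertain.

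On chromosome 11 the effectors Tgtp1 and Tgtp2 were higher in all 3 comparisons. Tgtp2 had 1241, 3346, 3253 and 3363 scaled reads in P80R B-ALL, against 441, 559, 484 and 471 in Pax5 KO and 159.7, 156, 148 and 181 in Pax5 WT, with groups fully apart. Its log2 differences were 2.41 and 4.01 for P80R B-ALL from Pax5 KO and from Pax5 WT (limma adjusted p = 0.000864 and 3.50e-05) and 1.59 for Pax5 KO from Pax5 WT (adjusted p = 2.17e-07). Since 81.2% of the 50-base words of Tgtp1 and 86.6% of those of Tgtp2 occur in other genes, mostly in each other, the split of reads between them is uncertain. Gm4951, on chromosome 18 like Iigp1, was 1 of the 6 family genes called higher in each P80R B-ALL comparison, but passed the filter on low values only through the P80R B-ALL libraries. It had 25.0, 206, 460.2 and 515 in P80R B-ALL, against 0, 3.29, 0 and 7.95 in Pax5 KO and 0 in all 4 Pax5 WT libraries. Its mean was at least 106-fold higher in P80R B-ALL than a floor of 3 reads per Pax5 WT library. Gm5431, an IRG gene next to Irgm1, was higher in P80R B-ALL than in Pax5 KO by 3.41 and than in Pax5 WT by 3.58 (limma adjusted p = 0.0150 and 0.0158). It had 28.9, 117, 383 and 444 in P80R B-ALL, against 9.90, 7.40, 27.4 and 17.3 in Pax5 KO and 13.2, 42.0, 9.89 and 3.44 in Pax5 WT. Recipient 1300 thus lay within the Pax5 WT range. Of the 50-base words of Gm5431, 37.3% occur in other genes, so its level is uncertain.

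Irgq, an atypical IRG on chromosome 7 away from the clusters, went the other way, with 94.7, 231, 249 and 220.0 scaled reads in P80R B-ALL, against 577, 625, 729 and 732 in Pax5 KO and 698, 681, 669 and 445 in Pax5 WT. It was lower in P80R B-ALL by a log2 difference of -1.82 from Pax5 KO (SE 0.32, limma adjusted p = 0.00300) and of -1.71 from Pax5 WT (SE 0.33, adjusted p = 0.00341). Irgc1, 9930111J21Rik1 and 9930111J21Rik2 did not pass in either P80R B-ALL comparison. Gbp2b, Gbp10, Gm4841 and F830016B08Rik were too low to be tested, and Gbp2b was at 0 in all Pax5 KO libraries, against 9.45, 36.0, 5.93 and 12.0 in Pax5 WT.

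Transcripts of the interferon genes looked up (Ifng, Ifnb1, Ifnl2, Ifnl3, Ifne and Ifnk) were scarce. The interferon-alpha genes were not looked up. Ifng, which encodes interferon-gamma, had 1, 3, 4 and 45 whole reads in P80R B-ALL, against 0, 0, 0 and 10 in Pax5 KO and 0 in every Pax5 WT library, and the highest count was in recipient 1308, the recipient with the highest sums of most other marker lists. Ifnb1 had 4 reads in recipient 1308 and 0 elsewhere. Ifngr1, the ligand-binding chain of the interferon-gamma receptor, had 12935, 23050.5, 20330.1 and 7597 scaled reads in P80R B-ALL, against 5190.0, 5336, 5374 and 5409 in Pax5 KO and 2341, 2244, 2412 and 2543 in Pax5 WT. The groups did not overlap, and Ifngr1 was higher by 1.46 in P80R B-ALL than in Pax5 KO (limma adjusted p = 0.00696), by 2.62 than in Pax5 WT (adjusted p = 0.000244) and by 1.16 in Pax5 KO than in Pax5 WT (adjusted p = 4.57e-09). Of the 9 receptor and kinase genes, 2 were higher (22.2%) and 2 lower against Pax5 KO, which is near the share of all tested genes, 17.6% higher and 20.8% lower. Against Pax5 WT 2 were higher and 0 lower, beside 21.0% and 18.9% of all tested genes, and in Pax5 KO against Pax5 WT 6 were higher (66.7%) and 0 lower, beside 35.7% and 29.1%. The median log2 differences of the list were 0.06, 0.38 and 0.32, and the same shares and medians over all tested genes apply to the lists that follow. Ifnar1, a chain of the type I receptor, was lower in P80R B-ALL than in Pax5 KO by -0.86 (adjusted p = 0.0147).

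Of 14 transcription factors of the interferon pathway, 7 were higher and 0 lower in P80R B-ALL than in Pax5 KO, 9 higher and 1 lower against Pax5 WT, and 6 higher (42.9%) and 5 lower (35.7%) in Pax5 KO than in Pax5 WT, both near the share of all tested genes. Their median differences were 1.23, 1.44 and 0.06. Irf9, the DNA-binding partner of STAT2, had 2172, 3458, 3322 and 3224 scaled reads in P80R B-ALL, against 1465, 1181, 1202 and 1154 in Pax5 KO and 279, 279, 326 and 341 in Pax5 WT. The groups were apart in the order seen for Irgm2, Igtp and Ifi47. Batf2, a factor induced by interferon-gamma in mouse macrophages, had 15.8, 92.3, 90.6 and 133 in P80R B-ALL, against 0 in all Pax5 KO libraries and 0, 0, 1.98 and 0 in Pax5 WT. Of the 14 factors, Batf2 passed the filter on low values only through the P80R B-ALL libraries and had to be high in them. Irf4, which acts in B-cell differentiation, had 293, 683, 2025 and 634 in P80R B-ALL, against 269, 208, 169.7 and 238 in Pax5 KO and 3434, 3004, 2742 and 2285 in Pax5 WT. Irf4 was lower than in Pax5 WT both in P80R B-ALL, by -1.99 (limma adjusted p = 0.0104), and in Pax5 KO, by -3.69 (adjusted p = 9.50e-10). Irf1, chosen after its values were seen, was higher in all 3 comparisons, with differences of 1.38 for P80R B-ALL from Pax5 KO (adjusted p = 0.00918), 1.94 for P80R B-ALL from Pax5 WT (adjusted p = 0.00106), and 0.56 for Pax5 KO from Pax5 WT (adjusted p = 0.000268).

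Other interferon-gamma induced genes, 22 of them tested, were higher for 13 and lower for 0 against Pax5 KO, higher for 14 and lower for 0 against Pax5 WT, and higher for 11 and lower for 5 in Pax5 KO against Pax5 WT, with medians of 1.63, 2.01 and 0.08. Psmb9, a subunit of the immunoproteasome, had 11252, 18837, 9995 and 24917 scaled reads in P80R B-ALL, against 2467, 2619, 2339 and 2730.5 in Pax5 KO and 2524, 2684, 2719.8 and 3165 in Pax5 WT. It was higher in P80R B-ALL by 2.58 and 2.46 (limma adjusted p = 0.000364 against Pax5 KO and 0.000185 against Pax5 WT), and the fetal liver groups overlapped. Aim2, a cytosolic DNA sensor, had 1389.7, 1987, 1918 and 1590.1 in P80R B-ALL, against 581, 679.6, 739 and 644 in Pax5 KO and 405, 328, 359 and 312 in Pax5 WT, and was higher in all 3 comparisons. H2-Ab1, a chain of MHC class II, had 1249, 1669, 1950.1 and 69641 in P80R B-ALL, against 9.90, 37.8, 18.9 and 26.0 in Pax5 KO and 127, 144, 154 and 149.7 in Pax5 WT, and was lower in Pax5 KO than in Pax5 WT by -2.72 (adjusted p = 2.24e-05).

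The 20 tested type I interferon-stimulated genes were higher for 8 and lower for 0 against Pax5 KO, higher for 17 and lower for 0 against Pax5 WT, and higher for 16 and lower for 2 in Pax5 KO against Pax5 WT, with medians of 0.85, 3.45 and 2.42. Isg15, a ubiquitin-like protein, had 692, 1464, 974 and 2596 scaled reads in P80R B-ALL, against 189.6, 187, 196 and 219 in Pax5 KO and 37.8, 26.0, 11.9 and 57.6 in Pax5 WT, so that the groups were apart in the same order as for the regulatory IRGs Irgm2 and Igtp. Rtp4 had 1722, 7793, 6203 and 2245 in P80R B-ALL, against 1632, 1376, 1509 and 1533 in Pax5 KO and 119, 85.0, 105 and 99.8 in Pax5 WT. In this list 16 of 20 genes were thus higher in Pax5 KO than Pax5 WT, where the 5 GBP members were lower.

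Of 8 feedback inhibitors, 1 was higher against Pax5 KO, 2 against Pax5 WT and 5 in Pax5 KO against Pax5 WT, where 1 was lower, with medians of 0.03, 0.22 and 0.84. Usp18, which restrains type I interferon signalling, had 262, 1403, 1953 and 3752 scaled reads in P80R B-ALL, against 301, 301, 346 and 321 in Pax5 KO and 7.56, 20.0, 28.7 and 19.8 in Pax5 WT. Of 17 genes that act with GBPs and IRGs in vacuole targeting and inflammasomes, 7 were higher and 4 lower against Pax5 KO, 7 higher and 3 lower against Pax5 WT, and 7 higher and 2 lower in Pax5 KO against Pax5 WT. The 41.2% higher in Pax5 KO against Pax5 WT is near the 35.7% of all tested genes, as is the 23.5% lower in P80R B-ALL against Pax5 KO near 20.8%, and the medians of the list were 0.17, 0.44 and 0.14. Gsdmd, which forms the pore of pyroptosis, had 1242, 1403, 1098 and 1477 in P80R B-ALL, against 562, 613, 544 and 519 in Pax5 KO and 469.7, 420.2, 307 and 402 in Pax5 WT, and the groups did not overlap. Traf6, a ubiquitin ligase recruited to vacuoles, had 1093, 1195, 1871 and 1025 in P80R B-ALL, against 3281, 3534, 4110.3 and 3724 in Pax5 KO and 4985, 4467, 4615 and 2997 in Pax5 WT. It was lower by -1.54 against Pax5 KO (limma adjusted p = 0.000797) and by -1.73 against Pax5 WT (adjusted p = 0.000462). Atg5, needed for lipidation of the ATG8 proteins that guide GBPs and IRGs, was lower in Pax5 KO than in Pax5 WT by -0.57 (adjusted p = 3.20e-05).

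The genes whose values were most like the mean profile of the 10 members over the 12 libraries were Xaf1, Tsc22d3, Epg5, Tlr6, Tifab and Sult6b1. Their root mean square difference from that profile was 0.40, 0.40, 0.42, 0.43, 0.45 and 0.49 on the log2 scale, where the median over the other tested genes was 1.41 and the members themselves ranged from 0.60 for Gbp9 to 2.74 for Iigp1. Xaf1, an interferon-stimulated gene, had 874, 1906, 1713 and 1709 scaled reads in P80R B-ALL, against 312, 237, 246 and 287 in Pax5 KO and 295, 218, 204 and 250.3 in Pax5 WT. Epg5, an autophagy gene, had 448, 3174, 2507 and 1583 in P80R B-ALL, against 453, 438, 454 and 350.3 in Pax5 KO and 629, 510.2, 510.1 and 434 in Pax5 WT. The mean profile averages GBP and IRG genes, which had opposite signs between the fetal liver groups.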

How the data were processed

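The 12 libraries were made, per the labels' protocols, from RNA of sorted and lysed mouse cells by SMART-Seq v4, a kit that copies whole transcripts without marking the strand. Tools named in the submitters' processing notes are fastp, STAR 2.7.8a and featureCounts, with build mm39. The annotation, the strand setting and the treatment of reads matching several genes were not given in the sources used here. As deposited, the signal values are read counts that the authors had scaled, equal to whole reads multiplied by 1 factor per library, from 0.722 to 1.38. Of these values 100% were whole multiples of their library's smallest positive one, within 0.001, which gave back whole reads. The origin of the factors was not given in the sources used here either. GENCODE M21, of an older build, gave symbols for 21780 of 21885 identifiers and exon lengths, and promoters came from RefSeq for GRCm38.p6. Both differ in build from the counted annotation.

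Each comparison was fitted to its own 8 libraries with limma 3.58.1 in R 4.3.3 (trend and robust options, two-sided) on log2(value + 1), over 12200 genes that reached 10 in at least 4 of 12 libraries. The scripts were tested on simulated data. Groups came from the sample titles. The members, the lists and the tests were chosen with earlier results of these data known. All members and all tested family genes are named, then up to 3 genes per pathway list and comparison with the smallest adjusted p, and the 6 genes most like the members' mean profile. A fold against a group at 0 uses a floor of 3 reads per library, which covers counting error only. Alternatives were other pseudocounts, filters, scalings and fits, edgeR 4.0.16 and DESeq2 1.42.0 on the whole reads, a replicate block, and leaving out libraries.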

Additional observations from a re-analysis of the deposited data

Results flagged for a closer look

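In Pax5 KO library 4, Gbp2 had 146 scaled reads, against 180.4, 181 and 183 in the other Pax5 KO libraries. The gap to the nearest library was 0.920 of the whole range, above the 95% critical value of Dixon's test for 4 libraries. It was 1 of 30 gene and group combinations examined, of which chance alone is expected to mark about 1 in 20. The value lies farther from P80R B-ALL and from Pax5 WT than those of the other 3 Pax5 KO libraries.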

How the results depend on the processing

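Of the member differences recomputed under other settings, 522 kept their sign and their side of the threshold, 27 no longer passed, 15 newly passed and 6 changed sign. The 6 were Gbp3 in P80R B-ALL against Pax5 WT with edgeR (0.71), with DESeq2 (0.75), without P80R B-ALL replicate 1300 (0.90) and without recipients 1300 and 1308 (1.41), and Gbp7 in the same comparison with DESeq2 (0.017) and without recipients 1300 and 1308 (0.62). With 1 library left out, Gbp3 ranged from -0.87 to 0.90 in that comparison. Leaving out 1 library gave 6 to 9 members higher against Pax5 KO, 6 to 8 higher and 0 to 1 lower against Pax5 WT, and 4 to 5 higher and 5 lower in Pax5 KO against Pax5 WT. The 1 lower member was Gbp7 without recipient 1302. Over all genes, calls lower in P80R B-ALL than in Pax5 KO numbered 2532, and 1596 to 2954 with 1 library left out, the fewest without Pax5 KO replicates 2 (1613) and 3 (1596). With all 12 libraries in 1 fit, which shares the larger spread of P80R B-ALL, Pax5 KO against Pax5 WT gave 3 members lower, 2449 genes higher and 1744 lower, against 5, 4352 and 3549, and Gbp5 and Gbp7 no longer passed (adjusted p = 0.205 and 0.0702). With edgeR on whole reads, 2519 genes were higher and 1833 lower against Pax5 KO, 2731 and 2054 against Pax5 WT, and 4206 and 3684 in Pax5 KO against Pax5 WT. Scaling by library totals gave a median over all genes of -0.26, in place of -0.11, against Pax5 KO and of 0.15, in place of 0.06, in Pax5 KO against Pax5 WT, and no member's call was changed by it or by TMM scaling. The replicate numbers of the fetal liver groups did not pair the libraries (correlations of deviations of 0.00493 to 0.0616), and with a replicate block 5 members were higher and 5 lower, and 4415 genes higher and 3572 lower. Depth limits Iigp1, Gbp6, Gbp8 and Gm4951 in Pax5 WT, where some or all libraries had 0 reads.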
